A study of Homo sapiens with 3 samples.

Results

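The genes examined here encode the proteins of the cytosolic ribosome. The rule that takes them reads the gene symbol and no level: every symbol made of RPL or RPS, a number and an optional A or X, together with RPSA, RPLP0, RPLP1 and RPLP2. This rule took 77 of the 59719 gene names in the table, 46 of the large (60S) subunit and 31 of the small (40S) subunit, and it left out pseudogenes and the paralogs whose names end in L or Y. The libraries came from PC3, a prostate cancer line that grows without androgen, and 1 library was sequenced for each of 3 lines: control cells (shCON) and cells with either hairpin against USP16 (shUSP16#1 or shUSP16#2). The hairpins were carried by a lentiviral vector and stable cells were selected with puromycin, and whether a line was a pool or a clone is not given in the sources used here. Expression was given as TPM, a level per transcript length that is scaled to the same total in every library. With 1 library per line, no difference below has a replicate check or a test, and the depth of the libraries cannot be read from TPM, so no interval is given.

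Ribosomal proteins are assembled with ribosomal RNA into the large and the small subunit, beginning in the nucleolus, and growing cells make their mRNAs at high levels. These mRNAs start with a run of pyrimidines, the 5′ terminal oligopyrimidine (TOP) tract, through which LARP1 and mTOR signalling set their translation and stability. MYC is known for driving ribosome production in growing cells. USP16 removes ubiquitin from histone H2A, and it is also known to remove ubiquitin from RPS27A on the maturing small subunit, which is why the ribosome is of interest in cells that lack USP16. The knockdown itself was visible in the table: USP16 stood at 19.92, 3.50 and 1.08 TPM in shCON, shUSP16#1 and shUSP16#2, the order in which values of the 3 libraries are listed throughout.

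The 77 genes held more of the transcriptome in both knockdown libraries than in shCON. They summed to 20.6% of all TPM in shCON and to 24.6% and 24.8% in the knockdown libraries. The median log2 change of the 77 genes was 0.24 under shUSP16#1 and 0.27 under shUSP16#2, while that of the 13637 genes averaging 1 TPM or more over the libraries, referred to as tested genes, was -0.17 and -0.37. A log2 change is log2(TPM + 1) under the hairpin minus log2(TPM + 1) in shCON. The genes did not move as a block: RPL32 and RPS19 stood at 1.67 to 1.85 times their shCON level, whereas RPL14 and RPL4 were lower under both hairpins. Because both knockdown libraries were set against the same shCON library, the 2 comparisons share whatever was particular to that library.

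The start sites of the genes are shown first, because the tract at the start is what these genes share beyond their names. RefSeq promoter windows on GRCh38.p14 were available for 62 of the 77 genes. A tract was counted where a C, followed only by C or T over at least 6 letters in all, opened within 5 bases of an annotated start. Such a tract was found in 52 of the 62 genes, or 83.9%, against 13.7% of all genes in the promoter table and 15.9% of the tested genes outside the family. In the windows printed here, 20 bases before the start are followed by the first 10 bases of the transcript, on the strand of the gene, and capitals mark the tract. The first 5 are among the 6 genes furthest above the family's median change, and the next 2 among the 6 furthest below it. The last 3 are RPS6, RPS27A and RPS4X, which are described below by their roles. RPL32, which lay furthest above, is not printed. Its tract was 6 bases long, and its other annotated starts had none. RPL4 and RPL7, which ranked between RPL14 and RPL22, are not printed either. RPS4X is shown as a start without a tract of this length. RPS19, RPL13 and RPS27A also have annotated starts without a tract, which are not printed.
RPS19: gcccgggaaaccccgtcgttCCCTTTCCCC
RPL13: gtgcattgcggggccgCTTCCTTTCCgctc
RPL37A: cctgcgcaccgcgtctCTTCCTTTCTgggc
RPS10: cagcaccgcgcatgctCCTTCCTTTCCagc
RPS3: cttccgcccgcgagccaCTTCCTTTCCTTT
RPL14: gggttgggcgggtcttCTTCCTTCTCgcct
RPL22: ctgcgtagttcgctcaCCTCCCTTTCTaac
RPS6: gcgctaagcggaagttggCCCTCTTTTCCg
RPS27A: gggcctgcgcggcgttCTTCCTTTTCgatc
RPS4X: cgcgcgcagtctccagccccaatttctacg
These windows lie on GRCh38 at chr19:41860235-41860264 for RPS19, chr16:89560662-89560691 for RPL13, chr2:216498824-216498853 for RPL37A and chr11:75399498-75399527 for RPS3, all on the forward strand. The window of RPS10 lies on the reverse strand at chr6:34426060-34426089. The windows of RPL14, at chr3:40457319-40457348, and RPS27A, at chr2:55232668-55232697, lie on the forward strand. Those of RPL22 (chr1:6199586-6199615), RPS6 (chr9:19380227-19380256) and RPS4X (chrX:72277239-72277268) lie on the reverse strand.

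The tract was present at the starts of genes that were higher and of genes that were lower, as the windows of RPS19 and RPL14 show. The 52 genes with a tract had median log2 changes of 0.25 and 0.24, the 10 genes without one 0.24 and 0.26, and the 15 genes without a promoter entry 0.24 and 0.29. Within the family, then, the medians of these sets lay close to each other. The MYC binding motif CACGTG, a palindrome that reads the same on both strands, was found in the 300-base windows of 4 genes (RPL13A, RPL19, RPS19 and RPS28), which is 6.45% of the 62, against 8.77% of all genes in the promoter table and 12.8% of the tested genes outside the family. The motif CGGAAG, the core that ETS factors bind, read on both strands, was found in 64.5% of the 62 genes, against 22.6% of all genes and 39.2% of the tested genes outside the family. The motif TATAAA, read on both strands, was found in 8.06% of the 62 genes, in 14.0% of all genes and in 8.1% of the tested genes outside the family. None of these motifs contains another. RPS28 is shown as the 1 gene of the 4 whose CACGTG ends next to the start. The 100 bases before its start, at chr19:8321396-8321495 on the forward strand, are printed with the motif in capitals.
RPS28: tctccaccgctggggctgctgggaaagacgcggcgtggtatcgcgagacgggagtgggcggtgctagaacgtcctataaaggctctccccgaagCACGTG

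All 77 genes were protein-coding in GENCODE release 29, and the annotation in the table gave 76 of them (all but RPS10) the molecular function of a structural constituent of the ribosome. It placed 43 of the 46 RPL genes in the cytosolic large subunit and 28 of the 31 RPS genes in the small subunit, and 0 in the subunit opposite to their name. The label of the family therefore fitted the annotation. The cells carried the epithelial transcripts known from PC3, with KRT8 at 748, 622 and 642 TPM and EPCAM at 274, 166 and 136 TPM in the same order. The prostate antigen gene KLK3, which PC3 cells are known to lack, was listed at 0 in all 3. In lines of this kind, more cells of a state and more RNA per cell cannot be told apart.

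The genes were among the most abundant of the transcriptome. All 77 passed the minimum of 1 TPM, and the lowest single value, that of RPL23A under shUSP16#2, was 441 TPM. Of the 100 most abundant genes, 44, 50 and 42 belonged to the family in shCON, shUSP16#1 and shUSP16#2. RPS29, a zinc-binding protein of the small subunit, ranked 1 among all genes in shCON, with 14107 TPM, and stood at 16991 and 16901 TPM in the knockdown libraries. RPS27, another zinc-binding small subunit protein, ranked 2 in shCON with 10472 TPM, and was at 11843 and 11211 TPM in the knockdown libraries. In both of these small subunit genes the knockdown libraries lay above shCON.

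RPL13, of the large subunit, was at 5740, 8444 and 9342 TPM. RPL30, which also regulates the splicing of its own transcript in yeast, was at 6145, 6713 and 7417 TPM, and RPS21, a protein needed for the late processing of small subunit RNA, at 5458, 7355 and 7382 TPM. These 5 genes were among the 6 of highest mean level in the family. The 4 of lowest mean level were RPL23A, RPS14, RPS6 and RPL5. RPS14, known for its loss in the 5q- syndrome, stood at 503, 698 and 686 TPM. RPL5, which carries 5S RNA into the large subunit, was at 695, 679 and 665 TPM.

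**Figure D1:**
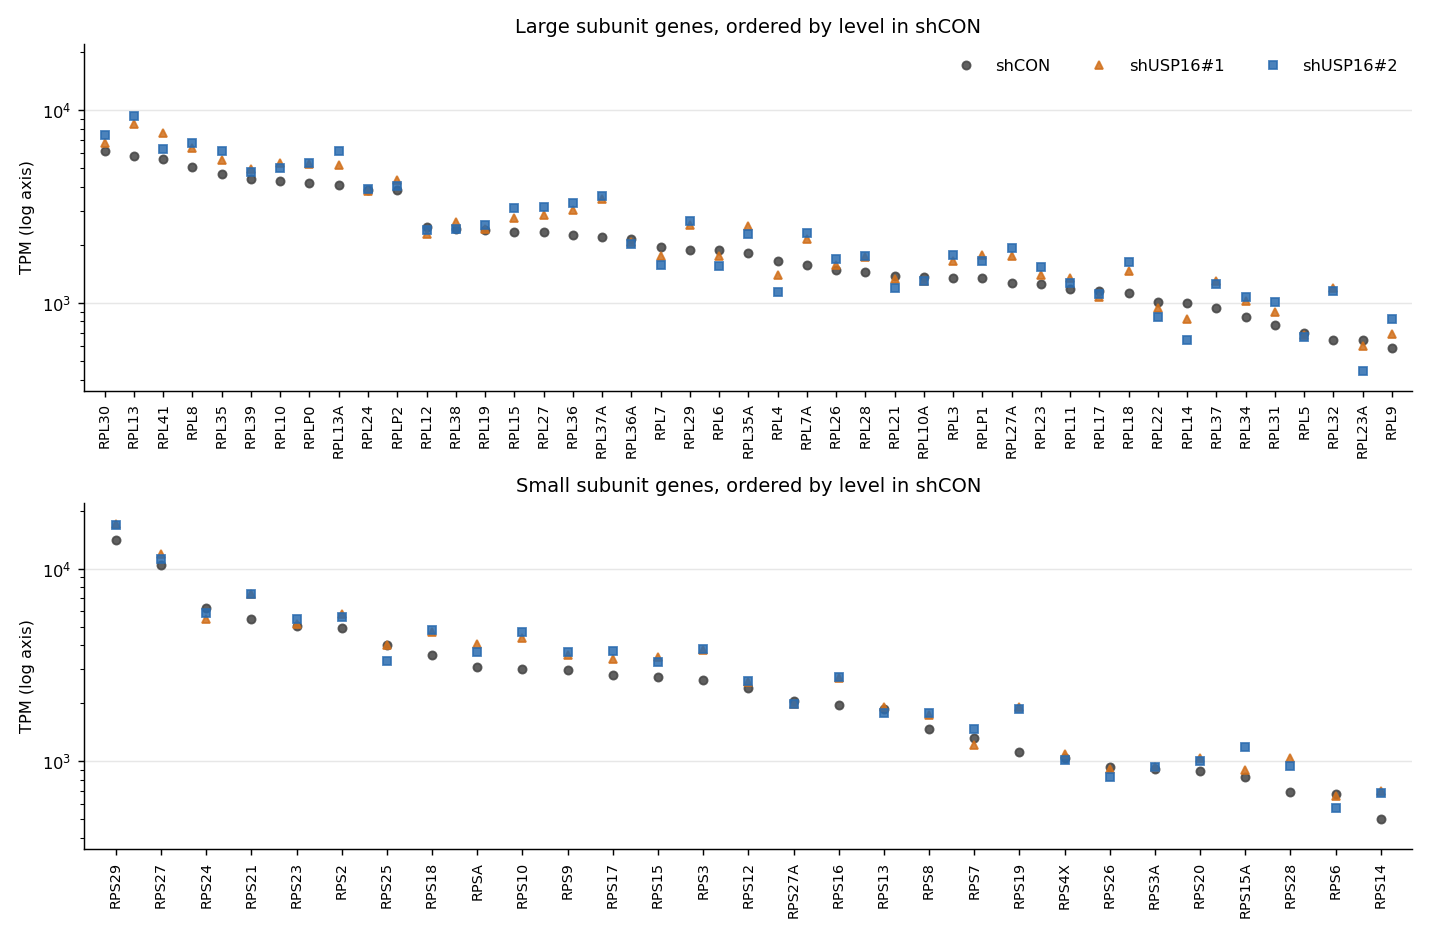
TPM of genes of the large subunit (upper panel, 45 genes drawn) and the small subunit (lower panel, 29 genes drawn) on a log axis, ordered from left to right by the level in shCON. Circles are shCON, triangles shUSP16#1 and squares shUSP16#2, 1 library each. RPS29 stands highest in every library and RPL23A under shUSP16#2 lowest, and most genes have both knockdown symbols above the circle.

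The highest gene stood at 28.0, 28.6 and 38.3 times the lowest in shCON, shUSP16#1 and shUSP16#2. Levels of different genes rest on the transcript length used for TPM, which the table gives as 352 to 7573 bases for these genes, with a median of 800 bases. RPL14, for instance, carries a length of 7136 bases in the table. Whether the quantification let this length vary between libraries is not given in the sources used here.

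Both subunits gained a like share. The large subunit genes summed to 10.6%, 12.6% and 12.8% of all TPM in shCON, shUSP16#1 and shUSP16#2. The small subunit genes summed to 9.98%, 11.9% and 11.9%. The ratio of the large to the small subunit sum was 1.06, 1.06 and 1.07. In the medians over genes, the large subunit was at 0.24 and 0.29 and the small subunit at 0.25 and 0.26, so the median of the large minus that of the small subunit was -0.01 under shUSP16#1 and 0.03 under shUSP16#2. After subtracting the median change of genes of like GC content (the GC trend), an alternative chosen for this value after seeing the data, the difference was -0.10 and -0.09.

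**Figure D2:**
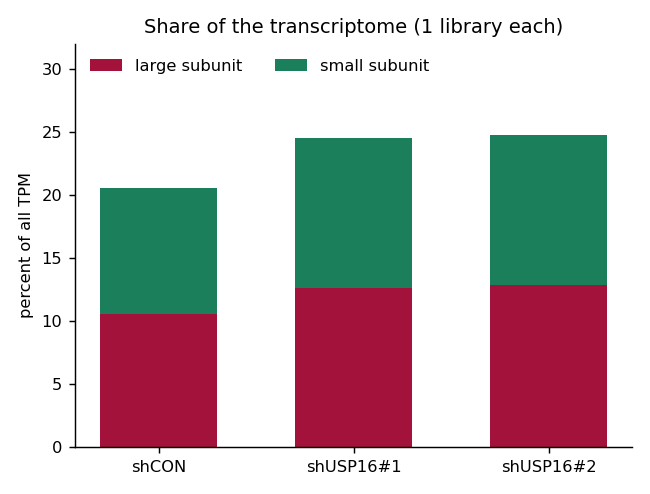
Share of all TPM held by the 77 ribosomal protein genes in each library, in percent, with the large subunit genes as the lower and the small subunit genes as the upper part of each bar. The bars reach 20.6%, 24.6% and 24.8%, and each part is larger in both knockdown libraries than in shCON.

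The gain of the share was also seen when other genes were left out of the total. Among protein-coding genes alone the share was 22.1%, 25.8% and 28.1%. Without mitochondrial genes and short structural RNA genes, which held 6.90%, 6.62% and 9.64% of all TPM, it was 22.1%, 26.3% and 27.4%. A TPM share is a proportion, so more of these mRNAs and less of other mRNAs cannot be told apart.

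Of the 77 genes, 56 were higher and 16 lower under both hairpins than in shCON. Over all tested genes, 24.5% were higher and 57.2% lower under both. Relative to the median change of all tested genes, a centring that raises every change by 0.17 and 0.37, 73 of the genes were higher and 2 lower under both, and these 2 were RPL14 and RPL4. The remaining 5 genes differed in sign between the hairpins on the deposited scale. A fold threshold of at least 25% higher, or the same fold lower (20%), was met by 23 genes that were higher under both hairpins (13 of the large and 10 of the small subunit) and by 0 that were lower, where 9.88% of all tested genes were higher and 36.1% lower. At 2-fold or more, 0 of the 77 were higher and 0 lower, where 1.14% of tested genes were higher and 4.6% lower.

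The changes of single genes covered a narrow range. They ran from -0.28 to 0.89 under shUSP16#1, with an SD over genes of 0.25, and from -0.63 to 0.84 under shUSP16#2, with an SD of 0.31. The SD over all tested genes was 0.69 and 0.90. The middle part of the family, from the lower to the upper quartile, lay between 0.02 and 0.42 under shUSP16#1 and between 0.01 and 0.44 under shUSP16#2. Among the 198 other tested genes with a mean level at or above that of the lowest member, the median change was 0.00 and 0.01, so genes of like abundance also lay above the median of all tested genes. The quartiles of these 198 genes were -0.28 and 0.27 under shUSP16#1, and -0.31 and 0.31 under shUSP16#2. Their median GC content was 54.7%, against 50.5% for all tested genes and 50.4% for the family, so they were not matched in GC content. All tested genes reach down to a mean of 1 TPM, so their SD also covers much lower levels.

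**Figure D3:**
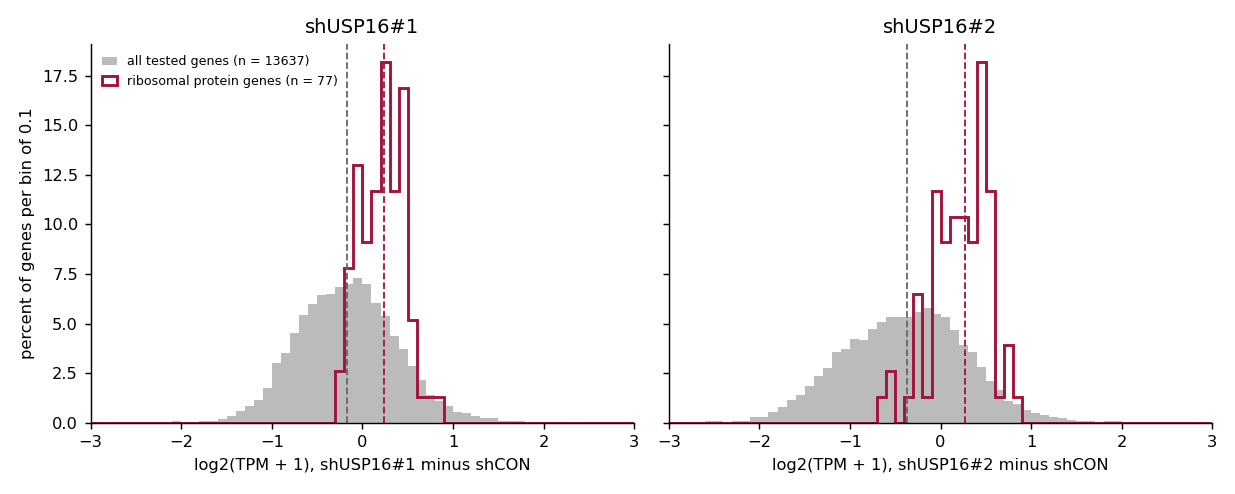
Distribution of the log2 changes against shCON for all 13637 tested genes (grey) and the 77 ribosomal protein genes (red outline), in percent of genes per bin of 0.1, for each hairpin. Dashed lines mark the medians, -0.17 and 0.24 under shUSP16#1, -0.37 and 0.27 under shUSP16#2, and the red outline is the narrower of the distributions in both panels.

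The genes furthest above the median of the family came from both subunits. RPL32 stood at 643, 1190 and 1148 TPM, log2 changes of 0.89 and 0.84. RPS19, a small subunit protein and the gene most often mutated in Diamond-Blackfan anaemia, was at 1123, 1920 and 1871 TPM, changes of 0.77 and 0.74. RPL37A, a zinc-binding large subunit protein, was at 2185, 3439 and 3565 TPM, changes of 0.65 and 0.71. In all 3 the knockdown libraries lay within 0.06 of each other on the log2 scale, while shCON lay well below both.

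RPL13 had changes of 0.56 and 0.70. RPS10, which is ubiquitinated when ribosomes stall, was at 3004, 4343 and 4716 TPM, changes of 0.53 and 0.65. RPS3, at the mRNA entry of the small subunit and also known as a repair-linked endonuclease, was at 2643, 3802 and 3845 TPM, changes of 0.52 and 0.54. The other genes at least 25% higher in both libraries included RPL7A, RPL13A, RPL18, RPL27A, RPL29, RPL35A, RPL36, RPL37 and RPLP0 of the large subunit, and RPS14, RPS16, RPS18, RPS21 and RPS28 of the small.

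The genes furthest below the median were mostly of the large subunit. RPL14 stood at 999.6, 823 and 645 TPM, log2 changes of -0.28 and -0.63. RPL4, an early-binding protein that lines the exit tunnel, was at 1651, 1392 and 1144 TPM, changes of -0.25 and -0.53. RPL7 was at 1954, 1748 and 1573 TPM, changes of -0.16 and -0.31. In these 3 genes shCON was highest and shUSP16#2 lowest. Of all 13637 tested genes, 10016 were lower under shUSP16#2 than under shUSP16#1, and of the 77 genes of the family 37 were.

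RPL22, which also regulates splicing and is often mutated in tumours, was at 1015, 937 and 847 TPM, changes of -0.12 and -0.26. RPL23A, which lies at the mouth of the exit tunnel, was at 640, 594 and 441 TPM, changes of -0.11 and -0.54. RPS24, whose mutations also cause Diamond-Blackfan anaemia, was the small subunit gene among the 6 furthest below, at 6240, 5480 and 5898 TPM, changes of -0.19 and -0.08. Of the 16 genes lower under both hairpins, 12 belonged to the large and 4 to the small subunit, out of 46 and 31.

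**Figure D4:**
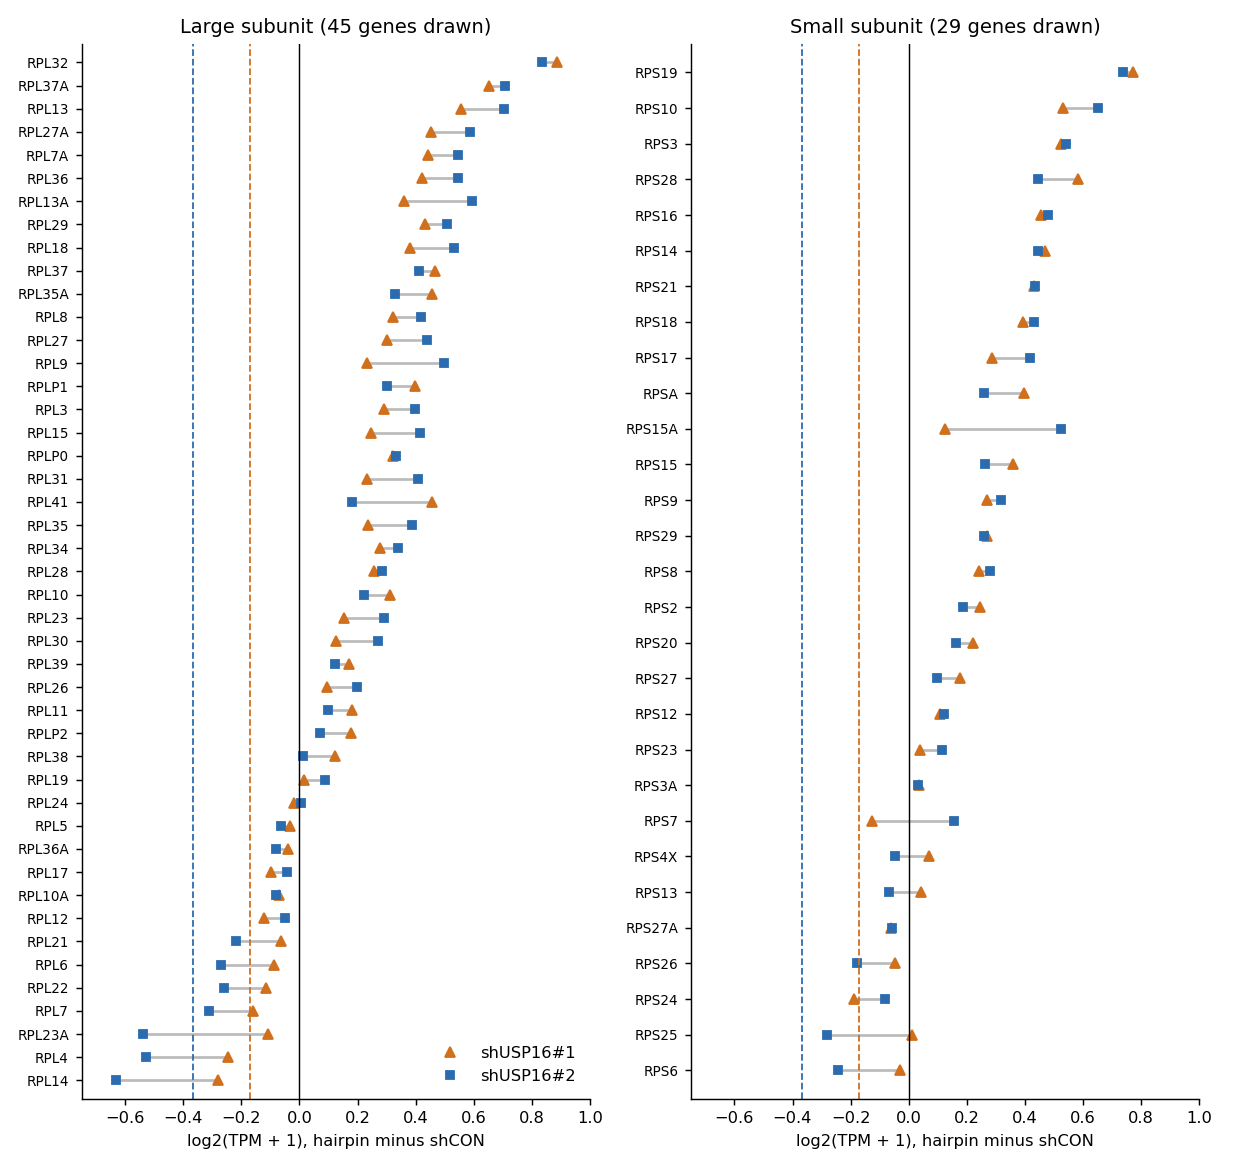
Change of single genes as log2(TPM + 1) under the hairpin minus shCON, with triangles for shUSP16#1 and squares for shUSP16#2 joined by a grey line, for the large subunit (left, 45 genes drawn) and the small subunit (right, 29 genes drawn), 1 library each. The solid line marks no change and the dashed lines the medians of all tested genes (-0.17 for shUSP16#1, -0.37 for shUSP16#2). RPL32 and RPS19 lie at the top, and RPL14, RPL4 and RPL23A at the bottom of the left panel.

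The genes were also described by role. RPLP0, RPLP1 and RPLP2 form the stalk of the large subunit, which recruits elongation factors. RPLP0, its base, was at 4203, 5259 and 5295 TPM, changes of 0.32 and 0.33. RPLP1 was at 1341, 1767 and 1655 TPM, changes of 0.40 and 0.30, and RPLP2 at 3836, 4339 and 4031 TPM, changes of 0.18 and 0.07. On the deposited scale all 3 stalk genes were higher under both hairpins, RPLP2 least, but with the GC trend removed RPLP2 was at -0.18 and -0.44.

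RPL5 and RPL11 join 5S RNA in the particle that also binds MDM2. RPL5 had changes of -0.03 and -0.06 (0.14 and 0.20 with the GC trend removed), and RPL11, at 1185, 1344 and 1269 TPM, had changes of 0.18 and 0.10. RPL10, a late-joining large subunit protein, was at 4279, 5307 and 4997 TPM, changes of 0.31 and 0.22, the latter -0.04 with the GC trend removed. RPL41, the smallest ribosomal protein, was at 5568, 7634 and 6309 TPM, changes of 0.46 and 0.18.

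RPS27A encodes a fusion of ubiquitin and a small subunit protein, and its ribosomal part is the known ribosomal target of USP16. It stood at 2062, 1976 and 1983 TPM, log2 changes of -0.06 under both. On the deposited scale this lay below the median of the family, while with the GC trend removed the changes were 0.20 and 0.36, beside family medians of 0.21 and 0.24. RPS6, the substrate of S6 kinase, was at 678, 665 and 572 TPM, changes of -0.03 and -0.24, or 0.24 and 0.07 with the GC trend removed. RPSA, also named the laminin receptor, was at 3084, 4063 and 3694 TPM, changes of 0.40 and 0.26, and the X-linked RPS4X at 1046, 1096 and 1013 TPM, changes of 0.07 and -0.05, or 0.20 and 0.15 with the GC trend removed.

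The 18 members that are known genes of Diamond-Blackfan anaemia had median changes of 0.24 and 0.36. Of these, 14 (77.8%) were higher and 3 (16.7%) lower under both hairpins, and 5 (27.8%) were at least 25% higher. The same shares were 72.7%, 20.8% and 29.9% in the whole family, and 24.5%, 57.2% and 9.88% over all tested genes. The shares of the 18 members thus lay near those of the whole family.

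The hairpins were close to each other for most genes. The median of shUSP16#2 minus shUSP16#1 over the 77 genes was 0.01 on the log2 scale, and 40 genes were higher and 37 lower under shUSP16#2 than under shUSP16#1. Over all tested genes this median was -0.21, and with protein-coding genes rescaled to the same total that of the family was 0.11. The genes lowest under shUSP16#2 relative to shUSP16#1 were RPL23A (-0.43), RPL14 (-0.35), RPS25 (-0.29) and RPL4 (-0.28). RPS25, a protein needed for initiation at viral internal entry sites, was at 4009, 4036 and 3300 TPM. Its 2 first libraries were alike and shUSP16#2 stood below them.

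In the other direction, RPS15A (0.40), RPS7 (0.28), RPL9 (0.27) and RPL13A (0.23) were highest under shUSP16#2 relative to shUSP16#1. RPS15A was at 830, 906 and 1194 TPM. RPS7 was at 1326, 1214 and 1477 TPM, below shCON under shUSP16#1 and above it under shUSP16#2. RPL9, which neighbours the stalk base, was at 585, 688 and 828 TPM, and RPL13A, known for silencing translation of inflammatory mRNAs when released from the ribosome, at 4064, 5212 and 6131 TPM.

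The change of a gene went along with the GC content of its transcripts. Over the 77 genes, Spearman's rho between change and GC content was 0.52 and 0.46 for the 2 hairpins, and over all tested genes with a GC value it was 0.54 and 0.64. The genes share their libraries and shCON, so these are descriptions across genes. The median GC content of the family, 50.4%, was close to that of all tested genes, 50.5%. In the 26 genes of highest GC content the medians were 0.39 and 0.42, all 26 were higher under both hairpins and 15 were so by at least 25%. In the 26 genes of lowest GC content the medians were 0.05 and 0.07, with 14 genes higher and 10 lower under both. The middle 25 genes had medians of 0.24 and 0.18. Among all tested genes, 24.5% were higher and 57.2% lower under both hairpins, and 9.88% were higher by at least 25%. These shares cover genes of every GC content, so they do not show how tested genes of like GC content moved.

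With the trend removed, the family had medians of 0.21 and 0.24, against 0.24 and 0.27 before. RPL32, of 50.4% GC, then had changes of 0.92 and 0.90, and RPS19, of 57.9% GC, had 0.50 and 0.33 where it had 0.77 and 0.74 before. Of the 6 genes furthest below the median of the family, RPL14 was then at -0.24 and -0.61, RPL4 at -0.21 and -0.46 and RPL22 at -0.03 and -0.09. RPL7 and RPS24 turned in sign under both hairpins, to 0.20 and 0.20 and to 0.08 and 0.31, and RPL23A was at 0.01 and -0.42. The order of the low genes, and for some their direction, therefore depended on whether the trend was left in. What part GC content, or a step of library preparation that depends on it, has in the changes was not tested.

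**Figure D5:**
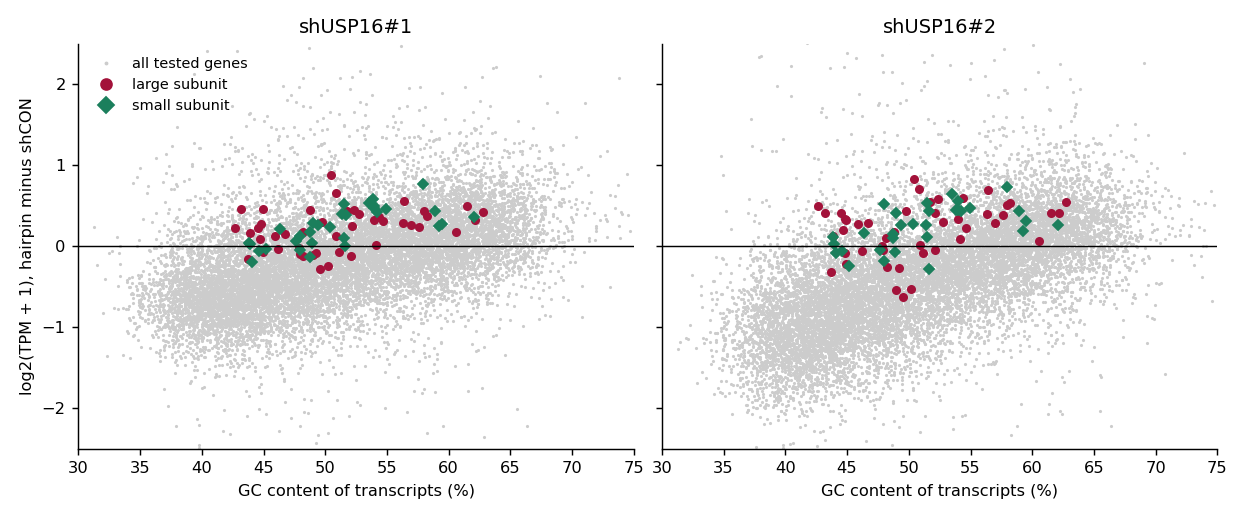
Log2 change against shCON plotted against the median GC content of the protein-coding transcripts of a gene (all transcripts where it has none), in percent, for shUSP16#1 (left) and shUSP16#2 (right). Grey points are tested genes, circles the large and diamonds the small subunit genes. The changes increase with GC content in both the grey cloud (rho 0.54 and 0.64) and the family (rho 0.52 and 0.46), and genes beyond 2.5 in either direction fall outside the axis.

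The genes were also read by chromosome. The 12 genes on chromosome 19, of 58.1% median GC, were all higher under both hairpins and 9 of them by at least 25%, with medians of 0.43 and 0.46. The 65 genes elsewhere had medians of 0.18 and 0.19, with 44 higher and 16 lower. Among them, the 7 genes on chromosome 3, of 50.4% median GC, had medians of 0.40 and 0.33, with 5 higher and 1 lower. The 6 genes on chromosome 17, of 49.4% median GC, had medians of 0.11 and 0.14, with 5 higher and 1 lower. Medians by chromosome therefore did not follow GC content alone. Over all tested genes, of every GC content, 24.5% were higher and 57.2% lower under both hairpins, and 9.88% were higher by at least 25%. The change had a rho with mean TPM of 0.30 and 0.23 over the 77 genes, and with the length in the table of -0.0028 and -0.036. For all tested genes the rho with mean TPM was 0.034 and 0.11, and with length -0.26 and -0.30. GC content and mean TPM themselves had a rho of 0.38 over the 77 genes.

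Between the start and end of 28 members, on the same strand, lie 60 small nucleolar RNA (snoRNA) genes, which guide the modification of ribosomal RNA. These hosts had medians of 0.23 and 0.24, and the 49 members without a snoRNA gene 0.25 and 0.30. Of the snoRNA genes, 58 were in the table, of which 54, 55 and 48 were listed at 0 in shCON, shUSP16#1 and shUSP16#2. The library preparation was not described as one for short RNAs.

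Ribosomal protein genes have many processed pseudogenes, whose copies can share reads with the genes. The table held 1131 such pseudogenes, named as a gene symbol followed by P and a number, of which 882 were at 0 in every library. Together they summed to 5997, 6841 and 6406 TPM, which is 2.92%, 2.78% and 2.59% of the sum of the 77 genes. In 5 families the pseudogenes held more than 5% of the family's TPM, those of RPS28, RPL23A, RPL21, RPL39 and RPS2, and the levels of these 5 genes are uncertain, since the counting could have split reads between gene and copies.

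RPS28P7 was at 1792, 2549 and 2647 TPM, above RPS28 itself, which was at 697, 1045 and 949.8 TPM. Added together, the RPS28 family was at 2489, 3594 and 3597 TPM, changes of 0.53 under both hairpins against 0.58 and 0.45 for the gene alone. RPL23AP42 was at 1130, 939 and 668 TPM, and the RPL23A family at 1853, 1612 and 1182 TPM, changes of -0.20 and -0.65. RPL23A was thus among the genes below the median with or without its pseudogenes. RPL21 itself was lower under both hairpins, and its family, with RPL21P16, had changes of 0.06 and -0.08.

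The relatives left out by the naming rule were read beside the family. FAU, which encodes a small subunit protein fused to a ubiquitin-like protein, was at 2518, 3135 and 3036 TPM. RACK1, a signalling scaffold on the small subunit, was at 1894, 2223 and 2018 TPM. Both were higher under both hairpins, as most of the 77 were. Of 8 paralogs, 6 were tested, with medians of -0.39 and -0.61. Their median GC content was 43.9%, and with the GC trend removed the medians were -0.075 and -0.13. RPL36AL was at 705, 555 and 397 TPM and RPL7L1 at 156, 92.5 and 81.4 TPM, while RPL22L1, the paralog of RPL22, was at 144, 97.0 and 88.7 TPM and RPL26L1 at 199, 148 and 138 TPM. These 4 of the 6 were at least 20% lower under both, where 36.1% of all tested genes were. RPL39L was at 177, 172 and 230.5 TPM, RPS27L at 21.5, 22.5 and 20.2 TPM, and the muscle and testis paralogs RPL3L and RPL10L at or near 0.

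The 78 mitochondrial ribosomal protein genes, which serve translation inside mitochondria, had medians of -0.12 and -0.25, and of 0.047 and 0.12 relative to all tested genes. Of these, 14 (17.9%) were higher and 52 (66.7%) lower under both hairpins, where 24.5% and 57.2% of all tested genes were, and 24 (30.8%) were at least 20% lower, where 36.1% of all tested genes were. By the change that both hairpins reached, the first in order were MRPL35 (85.7, 43.0 and 43.4 TPM), MRPL30 (40.0, 20.4 and 13.5 TPM) and MRPL19 (54.4, 28.6 and 31.5 TPM). A tract at the start was found in 4 of the 69 with a promoter entry.

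The 17 other genes known for TOP mRNAs, mostly translation factors, had medians of 0.05 and -0.06, and of -0.056 and -0.19 with the GC trend removed. Of the 17, 8 (47.1%) were higher and 8 lower under both hairpins, where 24.5% and 57.2% of all tested genes were. NPM1, a nucleolar chaperone of ribosome assembly, was at 1772, 848 and 694 TPM. HNRNPA1, a splicing factor, was at 1078, 558 and 479 TPM, and NAP1L1, a histone chaperone, at 266, 138 and 127 TPM. EEF1G, a subunit of the elongation factor 1 complex that was chosen after its values were seen, went the other way, at 1409, 2332 and 2343 TPM. A start tract was found in 9 of the 11 of these genes that had a promoter entry.

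The 10 regulators of TOP mRNAs had medians of -0.68 and -0.77, with 3 higher and 7 lower of 10 under both hairpins. Over all tested genes, 24.5% were higher and 57.2% lower. All 7 (70%) were at least 20% lower under both, where 36.1% of all tested genes were. LARP4, which binds the poly(A) tail and stabilises these mRNAs, was at 33.0, 12.1 and 7.47 TPM. RPS6KB1, the S6 kinase, was at 15.5, 6.80 and 6.23 TPM, and MTOR at 17.6, 8.81 and 8.27 TPM. LARP1, chosen after its values were seen, was at 51.9, 29.7 and 25.1 TPM. These 4 genes were among the 7 that were lower under both hairpins. The 3 that were higher under both are named for that direction. They were RPS6KB2 (changes of 0.39 and 0.41), EIF4EBP1 (0.29 and 0.41) and MLST8 (0.31 and 0.09). Their GC contents, 62.2%, 65.5% and 63.9%, lay above those of the 7 lower genes, which ran from 41.3% to 59.6%. What part GC content has in this split was not tested.

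The 14 chaperones of ribosomal proteins and factors of small subunit maturation had medians of -0.36 and -0.52. Over all tested genes the medians were -0.17 and -0.37. Of the 14, 2 (14.3%) were higher and 11 (78.6%) lower under both hairpins, where 24.5% and 57.2% of all tested genes were. PNO1, the partner of the enzyme that trims 18S RNA, was at 61.0, 28.0 and 26.5 TPM. RIOK1, a kinase of the last maturation step, was at 18.5, 8.60 and 4.80 TPM, and BCCIP, a chaperone of RPL23, at 91.1, 46.9 and 31.9 TPM. Of the 6 enzymes that add ubiquitin to ribosomal proteins or remove it, 2 were higher and 4 (66.7%) lower under both, near the share of all tested genes, and these 4 include USP16, the target of the hairpins, and USP10, which acts on the small subunit, at 69.4, 39.1 and 34.5 TPM. Their medians were -0.43 and -0.66.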

How the data were processed

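RNA-seq was analysed in 3 libraries of PC3 cells, 1 per stable hairpin line. Values are TPM, which the authors deposited as 1 table made on the Majorbio Cloud Platform. Sequencing used total RNA and a TruSeq RNA kit. The submitters' processing notes name CASAVA, HISAT2 and hg19 without versions. The quantification tool and annotation release are not given in the sources used here. The value columns appear again under the same names (3 columns, not used).

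Entries repeating a name were dropped, keeping the most abundant (1211 of 60930). Changes were log2(TPM + 1) differences from shCON, which understate those of low genes. The minimum was a mean of 1 TPM over the libraries (13637 genes). Gene IDs were matched to GENCODE release 29 (57308 names; GC content for 13296 tested genes). Coordinates are from RefSeq on GRCh38.p14, a build other than the hg19 named by the notes, and were matched by symbol. With 1 library per line no test was made. TPM keeps no depth.

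Members and lists were chosen with earlier results of these data known. Named were the 6 genes of highest and 4 of lowest mean TPM, the 6 furthest above and 6 furthest below the family median under both hairpins, the 4 with the largest difference between hairpins in each direction, genes chosen by role, and up to 3 genes per list with the largest change under both hairpins. Some genes this rule names are not reported here one by one, and the plots by gene leave them out. Alternatives were a pseudocount of 0.1 TPM, centring, rescaling to protein-coding genes, adding pseudogenes, no minimum or one of 5 TPM, other totals for the share, and removal of the GC trend by the median of 50 bins. The last, for results other than the family median, and leaving out 5 genes with abundant pseudogenes were chosen after seeing the data. Scripts were tested on simulated data. Tables were handled with pandas 2.3.3 and numpy 2.4.6 in Python 3.11.15, rank correlations came from scipy 1.17.1, and plots were drawn with matplotlib 3.10.9.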

Additional observations from a re-analysis of the deposited data

Results flagged for a closer look

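The 5 genes below lay on opposite sides of shCON under the hairpins, and that difference was not tested. The change under shUSP16#2 minus that under shUSP16#1, on the log2 scale, was 0.28 for RPS7, -0.29 for RPS25, -0.11 for RPS4X, -0.11 for RPS13 and 0.024 for RPL24. RPS13 was at 1862, 1915 and 1777 TPM and RPL24 at 3856, 3806 and 3870 TPM in shCON, shUSP16#1 and shUSP16#2, so these 2 stayed near their shCON level. The pseudogenes of the family, which the comparisons do not use, summed to 6841 TPM under shUSP16#1 and 6406 TPM under shUSP16#2, above the 5997 TPM in shCON.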

How the results depend on the processing

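No paired analysis was possible because there was only 1 library for a line. Medians that moved by over 0.1 on the log2 scale, and counts that moved by over 1.5 times, are given here. Centring on all tested genes moved the medians under shUSP16#1 and shUSP16#2 to 0.41 and 0.64 for the family, 0.41 and 0.65 for the large and 0.42 and 0.63 for the small subunit, 0.047 and 0.12 for mitochondrial ribosomal proteins, 0.23 and 0.31 for other TOP genes, -0.51 and -0.40 for their regulators, -0.19 and -0.15 for chaperones and maturation factors, -0.26 and -0.29 for ubiquitin enzymes, and -0.21 and -0.24 for paralogs. It also gave a median difference between hairpins of 0.20, 48 genes at least 25% higher, 1 by 2-fold and 2 lower. These shifts follow from the subtraction itself. Rescaling to protein-coding genes gave a difference between hairpins of 0.11. The ubiquitin enzymes were at -0.55 under shUSP16#1 with a pseudocount of 0.1 TPM, and at -0.28 and -0.49 with a minimum of 5 TPM, and the paralogs at -0.21 and -0.32 with no minimum, as the number of genes differed. Removing the GC trend gave -0.056 and -0.19 for other TOP genes, -0.075 and -0.13 for paralogs, -0.54 for ubiquitin enzymes under shUSP16#2, and -0.088 for the large minus small subunit under shUSP16#2. The cause was not tested. The share was 22.1% in shCON and 28.1% under shUSP16#2 of protein-coding TPM, and 22.1% and 27.4% without mitochondrial and short structural RNA genes. Of 68 changes of named genes, 0 moved with the pseudocount or rescaling, 1 with pseudogenes added (RPL23A under shUSP16#2, to -0.65), 42 with the GC trend removed and 68 with centring. Without the 5 genes with abundant pseudogenes the share was 19.4%, 23.2% and 23.5%. Depth is unknown, and 1 library per line leaves the spread between cultures unmeasured.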
